A study of Mus musculus with 4 samples.

Results

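The replication-dependent histone genes encode the linker histone H1 and the core histones H2A, H2B, H3 and H4, and they were described here in lung group 2 innate lymphoid cells (ILC2s). Members were chosen by name, as the protein-coding genes whose symbol opens with Hist1h, Hist2h, Hist3h or Hist4h. They numbered 60 of the 38697 genes in the authors' deposited table, with 6 for H1, 14 for H2A, 17 for H2B, 10 for H3 and 13 for H4. A further 3 rows with such a symbol are pseudogenes or a noncoding RNA and were left out.

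ILC2s live in tissues such as the lung and secrete type 2 cytokines, IL-5 among them. They were sorted from lungs of C57BL/6 mice, all of which had received bleomycin, a drug that injures the lung and leads to fibrosis, and all of which carried 1 copy of R5, an Il5 allele that reports Il5 expression and makes Cre recombinase. The WT group (R5/+) had no further allele, and the KO group (R5/+ Nrp1f/f) also carried floxed Nrp1, the gene of neuropilin-1, a co-receptor for semaphorins and VEGF. Cre from R5 acts only in cells that have expressed Il5, so cells without that history keep the floxed gene. There were 2 samples in each group, and each was a pool of 3 to 4 mice. The comparison bears on how loss of Nrp1 changes RNA levels in these cells.

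Nucleosomes are built from pairs of H2A, H2B, H3 and H4, and H1 binds the DNA between them. Replication-dependent histone genes supply this protein in bulk during S phase, and most lie in dense clusters as short genes without introns. Their mRNAs are the known exception among animal mRNAs in that they end in a conserved stem-loop rather than a poly(A) tail. Stem-loop binding protein holds that structure while the U7 small nuclear ribonucleoprotein directs the cut just downstream. Some of these genes also give a longer mRNA with a poly(A) tail, a form described in differentiating and resting cells. Full-length cDNA kits of the type used here prime from poly(A) tails, and the part of this in the levels below was not tested.

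The stem-loop is shown first because it is the feature that defines this mRNA family. It was searched for as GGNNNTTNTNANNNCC, with the further condition that the 6 bases of its arms pair (Watson-Crick or G-T), in the 58 members whose identifier has a GENCODE M21 gene model (GRCm38, the assembly of mm10). Of these, 46 have a protein-coding transcript that extends past the stop codon, and 41 of the 46 held the motif there, starting 21 to 54 bases after the stop codon. By comparison, 0.253% of all 58797 protein-coding transcripts in the annotation held it anywhere on the sense strand, and 0.206% on the reverse strand. These shares are of whole transcripts, those of the members included, rather than of the part after the stop codon alone. The 5 members with sequence after the stop codon and no match were Hist1h1a, Hist1h2bc, Hist1h2bq, Hist1h2br and Hist2h2be. A missing match says only that these letters are not in the annotated transcript. The other 12 members have models that end at the stop codon, so no motif could be found there.

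The 41 matches fell into 8 distinct sequences, 4 of them in H4 genes and 4 in the other classes, and 0 were shared between H4 and another class. They are written below 5′ to 3′ as DNA, with the paired arms and loop in capitals and flanking bases in lower case.
Hist1h1c (H1), chr13:23739507-23739532, plus strand: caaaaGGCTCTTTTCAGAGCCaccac
Hist3h2a (H2A), chr11:58955167-58955192, plus strand: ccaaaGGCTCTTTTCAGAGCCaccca
Hist1h3e (H3), chr13:23561898-23561923, minus strand: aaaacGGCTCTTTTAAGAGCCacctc
Hist1h3f (H3), chr13:23544927-23544952, plus strand: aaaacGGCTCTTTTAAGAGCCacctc
Hist2h2ac (H2A), chr3:96220413-96220438, minus strand: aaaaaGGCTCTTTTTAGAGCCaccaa
Hist1h3g (H3), chr13:23535884-23535909, plus strand: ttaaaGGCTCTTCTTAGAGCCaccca
Hist1h4d (H4), chr13:23581945-23581970, plus strand: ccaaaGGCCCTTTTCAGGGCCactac
Hist1h4i (H4), chr13:22040961-22040986, minus strand: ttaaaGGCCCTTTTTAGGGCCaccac
Hist1h4a (H4), chr13:23760795-23760820, minus strand: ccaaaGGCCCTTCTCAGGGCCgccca
Hist1h4b (H4), chr13:23757361-23757386, plus strand: caaaaGGTCCTTTTCAGGACCactca

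The form shown for Hist1h1c was the commonest, carried by 21 members, namely 3 H1, 8 H2A, 6 H2B and 4 H3 genes. The form of Hist1h4d was carried by 7 of the 12 H4 genes with a match. Hist1h3e and Hist1h3f share the whole printed stretch.

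Few of these genes gave many reads. The level used is baseMean, which per the file headers is the authors' mean normalized count of a gene over the libraries, so it has no replicate error here. In the authors' deposited table the 60 members sum to 0.0222% of all baseMean, and Hist1h1c alone makes up 51.5% of that sum. The table gives an adjusted p only to genes whose baseMean is 6.71 or more, and 25 of the 60 members reach it, against 19193 of 38697 genes. Of the 35 below it, 14 have a baseMean under 1. The members nearest to this limit are Hist2h2ac at 7.49, Hist1h3i at 7.53 and Hist1h2bh at 9.16 above it, and Hist1h2ac at 6.42, Hist1h1a at 4.32 and Hist2h3c2 at 4.12 below it, per the authors' deposited table. By class, 3 of 6 H1, 2 of 14 H2A, 6 of 17 H2B, 5 of 10 H3 and 9 of 13 H4 genes reach the limit. Values per library were not analysed here, since the 8 columns that hold them carry codes that match no sample label.

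H1 linker histones held the largest part of the summed level, 55.1%, through Hist1h1c, a somatic H1 gene. Per kb of exon, the scale on which genes of unlike length are compared, Hist1h1c stood at 951, from a baseMean of 1484 per the authors' deposited table. No other member reaches a baseMean of 1000. The somatic genes Hist1h1e and Hist1h1d stood at 31.2 and 4.42 per kb. Hist1h1a, at 5.83 per kb, and Hist1h1b, at 2.54, also encode somatic H1, and Hist1h1t, the testis form, stood at 2.93. Hist1h1d has an annotated transcript of 7425 bases, so its level per kb depends strongly on that model.

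Among the core histones, H2B held 20.1%, H4 9.76%, H3 8.87% and H2A 6.23% of the summed level. Hist1h2bc led H2B at 324 per kb (baseMean 374 per the authors' deposited table). It was followed by Hist1h2bg at 54.4, Hist3h2ba at 50.5, Hist1h2be at 20.6 and Hist1h2bj at 8.48 per kb. Hist1h3e led H3 at 159 per kb, followed by Hist1h3a at 98.0, Hist1h3f at 33.1, Hist1h3i at 18.3 and Hist1h3d at 9.37. Hist3h2a led H2A at 71.5 per kb, and the next, Hist2h2ac, stood at 14.4, ahead of Hist1h2ai at 5.57 and Hist1h2ae at 4.74. The leading gene of H2B and that of H2A thus stood well above the others of its class, and in H3 the first and second were nearer to each other. The H4 genes were more even, with Hist1h4m at 61.1 per kb, Hist1h4c at 59.8, Hist1h4d at 56.9, Hist1h4i at 39.4, Hist1h4h at 32.9 and Hist2h4 at 29.8. Without replicate errors on the levels, the order of H4 neighbours this close cannot be told apart. The median over all members of a class was 25.7 per kb for H4, 6.88 for H3, 5.12 for H1, 3.71 for H2B and 2.19 for H2A.

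**Figure D1:**
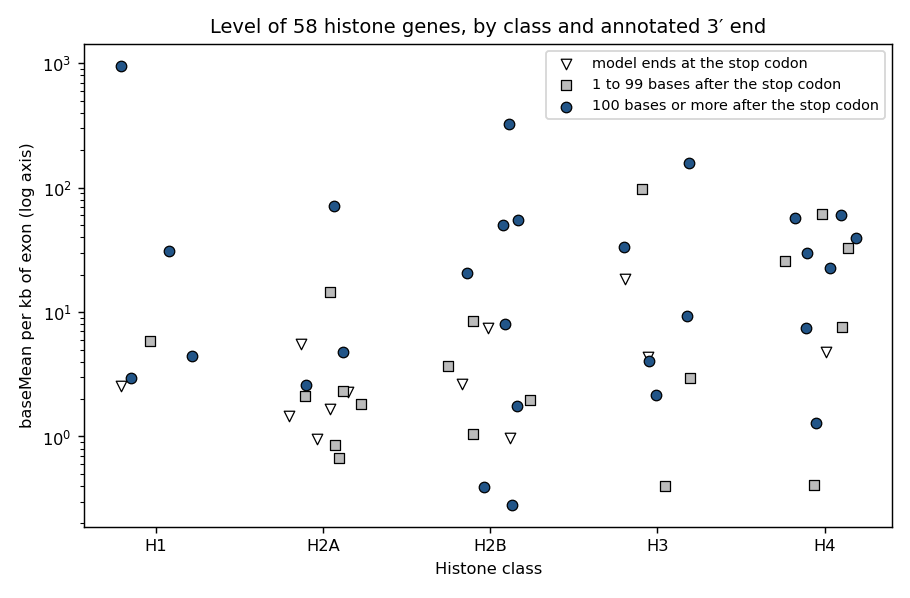
Level of the 58 histone genes with a gene model, as baseMean per kb of exon on a log axis, by class, with 1 point per gene. Filled circles are genes whose annotated transcript runs 100 bases or more past the stop codon, squares 1 to 99 bases and open triangles none; filled circles make up 8 of the 10 highest points.

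The annotated 3′ end was compared with these levels because every stem-loop found ends within 100 bases of the stop codon, so a longer model includes sequence past the usual cut. The division at 100 bases was chosen after the levels were seen. Of the 58 members, 27 have a model of 100 bases or more after the stop codon, 19 have 1 to 99 bases and 12 have none. The median level was 20.6 per kb in the first set, 2.95 in the second and 2.59 in the third. The first set held 94.3% of the summed baseMean and 18 of the 25 members with an adjusted p. The polyadenylation signal AATAAA was in the last 50 bases of a transcript in 13 of the 27 members of the first set and in 0 of the others. In the 12 members whose models end at the stop codon, these 50 bases are all coding sequence. In most models with 1 to 99 bases they take in the stem-loop or coding sequence. The lack of the signal outside the first set thus follows largely from how the sets were made, and nothing is concluded from it. Of all protein-coding transcripts 40.5% held the signal, a share of transcripts rather than of genes. Among the 13 members with the signal were Hist1h1c and Hist3h2a, whose models run 840 and 1643 bases past the stem-loop. Levels of the 13 ran from 0.282 per kb for Hist1h2br to 951 for Hist1h1c, with Hist1h1t at 2.93 and Hist1h4j at 1.28. Hist1h2bc and Hist1h3e, at 324 and 159 per kb, are in the first set without the signal, so it did not mark the higher levels. The length after the stop codon and the level per kb had a Spearman correlation of 0.34 across the 58 genes, which share libraries, depth and, in part, sequence.

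The pattern had clear exceptions. Hist1h3a, with 90 bases after its stop codon, stood at 98.0 per kb, and Hist1h4m, with 52, at 61.1. Within H4 the medians of the long and short sets were close, at 29.8 and 25.7 per kb. Hist1h2bq and Hist1h2br have transcripts with 823 bases after the stop codon and stood at 0.389 and 0.282 per kb. Gene models themselves are built from cDNAs, and whether the reads came from the stem-loop or the poly(A) form was not tested.

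Many histone genes are near copies of one another, which bears on every level given here, since the authors' handling of reads that fit several genes is not given in the sources used here. Of the 50-base words in a member's transcripts, a median of 46.4% also occur in another gene, and the share was above 50% in 25 of the 58 members. It was 97.3% in Hist1h2bq and 88.7% in Hist1h2br, which share sequence with each other. Hist1h4m and Hist1h4n, at 89.8% and 85.6%, are another such pair, and Hist1h3e shares 73.4% of its words, chiefly with Hist1h3f. At the other end, the share was 8.54% in Hist1h1c, 1.01% in Hist2h4 and 0 in Hist2h2be. Across the 58 genes it had a Spearman correlation of -0.30 with the level per kb and of -0.45 with the length after the stop codon, with the same limits. The median share was 28.9% in the set with 100 bases or more after the stop codon, 59.4% in that with 1 to 99 and 77.2% in that with none, so 3′ end and shared sequence go together here and their parts in the levels cannot be told apart. Exons of 15 members overlap a gene on the other strand, and neither kit is described as marking strand. Of Hist3h2a exonic bases, 32.99% lie in exons of its neighbour Trim17 on the same strand, and 25.7% of those of Hist1h1e lie in exons of Hist1h2be or the model Gm11398, as do 11.2% of those of Hist1h2be with Hist1h1e or Gm11398. The share of reads that fell in these overlaps was not analysed here, and the levels of Hist3h2a, Hist1h1e and Hist1h2be are uncertain.

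Most members lie in the Hist1 locus of chromosome 13, with smaller groups on chromosomes 3 (Hist2), 11 (Hist3) and 6 (Hist4h4). The 50 Hist1 members with a gene model fall into 4 stretches separated by gaps of more than 100 kb. The first, chr13:21715763-21837530, holds 17 members with a median baseMean of 1.24, and 3 of them reach the limit for an adjusted p. The second holds 4 members, of which Hist1h4i alone reaches it. The third, chr13:23531050-23764406, holds 27 members with a median baseMean of 11.7, and 14 of them reach it, Hist1h1c, Hist1h2bc and Hist1h3e included. The share of 50-base words found in other genes was a median of 86.4% in the first stretch and 40.4% in the third, and its part in the lower levels of the first was not tested. The fourth holds the testis genes Hist1h2ba and Hist1h2aa, which both have 0.371 as baseMean per the authors' deposited table. The highest and the lowest member by baseMean, Hist1h1c at 1484 and Hist1h4b at 0.161 per the authors' deposited table, both lie in the third stretch, as the map of the locus shows.

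**Figure D2:**
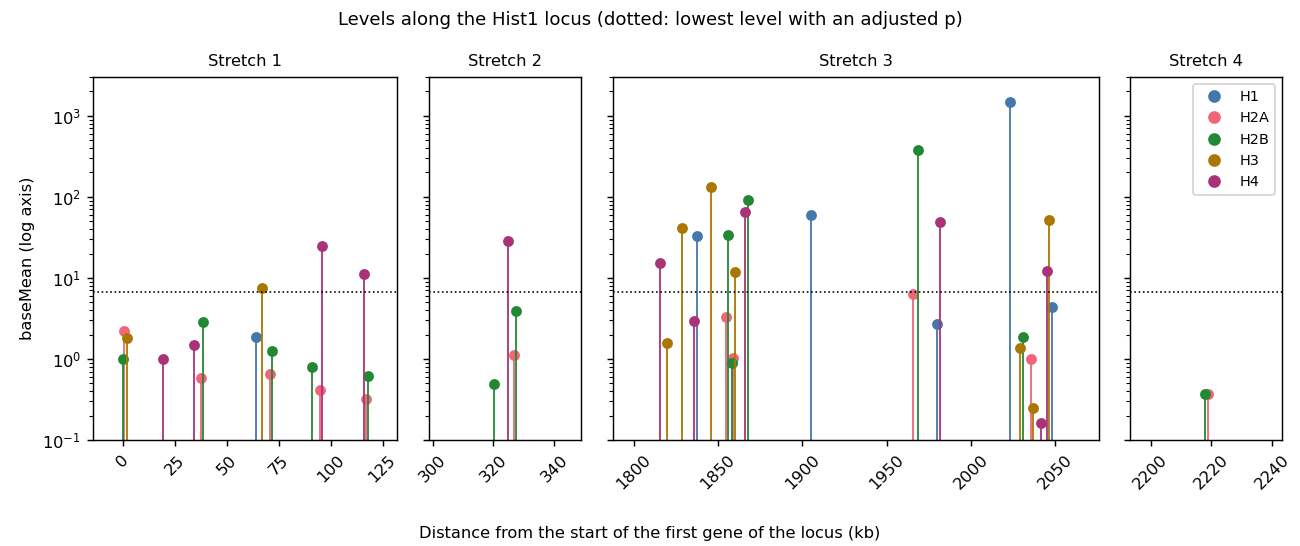
baseMean on a log axis against distance in kb from the start of the first gene of the Hist1 locus, for 50 genes in 4 stretches, coloured by class. The dotted line marks the lowest level with an adjusted p, which 3, 1, 14 and 0 genes of the 4 stretches reach.

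Between genotypes, no histone gene changed past the test. Fold changes are given as KO against WT, so that a negative value is lower in KO. Nrp1 itself was at -1.18 ± 0.21 (SE) (adjusted p = 1.27e-04) by the authors' deposited table. Of the 25 members tested, 0 were higher and 0 lower at an adjusted p under 0.05 by the authors' test, while 0.453% of the 19193 tested genes were called higher and 0.0990% lower, 0.552% in all. A count of 0 in 25 genes is therefore near this background. At an unadjusted p under 0.05 the count was also 0 of 25, against 13.6% of all tested genes. That share depends on abundance. Under a baseMean of 50, where 17 of the 25 members lie, 19.5% of tested genes were higher and 0.0601% lower. From 50 to 1000 the shares were 2.47% and 2.60%. The smallest p among members was 0.139, that of Hist1h3e, and adjusted p-values ran from 0.534 to 0.998. With only 2 pools in a group, these p-values can reflect spread between pools at most, not between mice. They rest on the deposited errors, which for the members were close to those of other genes of like abundance.

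The most abundant members give the tightest limits. Hist1h1c had a log2 fold change of -0.31 ± 0.24 (adjusted p = 0.597) per the authors' deposited table, with a 95% interval from -0.78 to 0.16. Hist3h2a stood at 0.03 ± 0.42 (adjusted p = 0.984) per the authors' deposited table, with an interval from -0.79 to 0.86. For these 2 genes alone the interval lies within a change of 1 on the log2 scale, that is 2-fold, in either direction. Hist1h2bc stood at -0.44 ± 0.34 (adjusted p = 0.595) per the authors' deposited table, with an interval from -1.10 to 0.22. For a call, a gene needs a value 3.64 times its error, which is 0.87 for Hist1h1c and 1.22 for Hist1h2bc and reaches 6.46 for Hist2h2ac. With errors of this size, a 2-fold difference was not detectable for most of the family.

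H1 genes other than Hist1h1c had wide errors. Hist1h1e stood at 0.09 ± 0.71 and Hist1h1d at -0.28 ± 0.94 per the authors' deposited table. The median of the 3 tested H1 genes was -0.28. In H2A, Hist2h2ac stood at 0.33 ± 1.77 per the authors' deposited table, and the median of the 2 tested genes was 0.18.

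H2B genes were on both sides of 0, with 3 of 6 positive and a median of 0.06. Hist3h2ba had the lowest value of any tested member, -1.31 ± 1.00 (adjusted p = 0.598), per the authors' deposited table. Hist1h2be stood at 0.28 ± 0.59, Hist2h2be at 0.38 ± 1.07 and Hist1h2bg at -0.14 ± 0.87 per the authors' deposited table. The last turned positive, to 0.12, once values were centred on abundant genes. Each of these values is smaller than 2 times its error.

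Of 5 tested H3 genes, 3 were negative, and the median was -0.30. Hist1h3e stood at -0.71 ± 0.48 (adjusted p = 0.534) and Hist1h3f, with which it shares sequence, at -0.92 ± 0.80 (0.654), per the authors' deposited table. These 2 values may rest in part on the same reads. Hist1h3a, the second of the class by level, stood at 0.11 ± 0.71 per the authors' deposited table.

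Of 9 tested H4 genes, 7 were negative, and the median was -0.34. Hist1h4i stood at -1.17 ± 0.95 (adjusted p = 0.619) and Hist1h4d at -0.76 ± 0.64 (0.637) per the authors' deposited table. Hist1h4a was at -0.87 ± 1.46, Hist1h4c at -0.34 ± 0.72 and Hist1h4n at -0.65 ± 1.49 per the authors' deposited table. Hist1h4m and Hist1h4h, at -0.07 ± 1.01 and -0.04 ± 1.25 per the authors' deposited table, turned positive when centred on abundant genes. Hist2h4 and Hist4h4, which lie outside the Hist1 locus, stood at 0.01 ± 0.76 and 0.18 ± 1.10 per the authors' deposited table. The tested members of the classes thus had medians from -0.34 to 0.18. Over all members with a fold change, those under the limit included, the medians were 0.11 for H1, 0.60 for H2A, 0.26 for H2B, -0.51 for H3 and -0.067 for H4, so the order of the classes depends on the filter. Differences between classes were not tested.

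**Figure D3:**
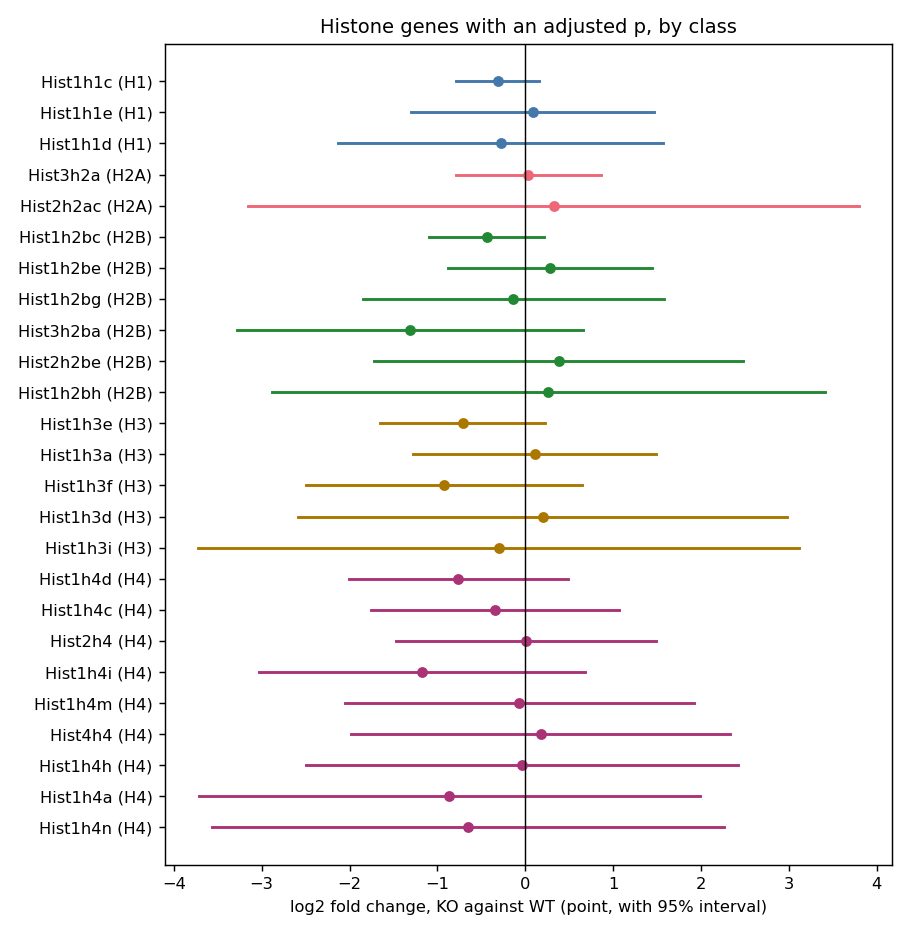
log2 fold change of KO against WT for the 25 histone genes with an adjusted p, with 95% intervals from the deposited standard errors, grouped by class and in order of baseMean within each class. Every interval includes 0, and the narrowest is that of Hist1h1c, from -0.78 to 0.16.

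The direction of the members was set beside all tested genes, because values in this table depend on abundance. Over the 25 members the median was -0.14, with 10 positive and 15 negative, while over all 19193 tested genes it was 0.08, with 54.0% positive. Among tested genes with a baseMean under 50 the median was 1.41 and 85.2% were positive. The 17 members in that range had a median of -0.14, and 6 were positive. Their median baseMean was 21.1 against 14.1 for all genes of the range, so abundance was not matched within it. From 50 to 1000, the median was -0.11 over all genes, with 36.9% positive, and 0.03 over 7 members, with 4 positive. The median of the low-abundance histone genes was thus lower than that of all genes of their range, as the plot against abundance shows, and 0 of the 17 passed the test. Their errors were like those of other genes: the deposited error divided by the median error of the nearest genes in baseMean (100 ranks on each side) ran from 0.851 to 1.24 over the 25 members, with a median of 0.960. When fold changes were centred on genes whose baseMean is 1000 or more, which adds 0.25 to each, 13 members were positive and 12 negative, and the median turned to 0.12.

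**Figure D4:**
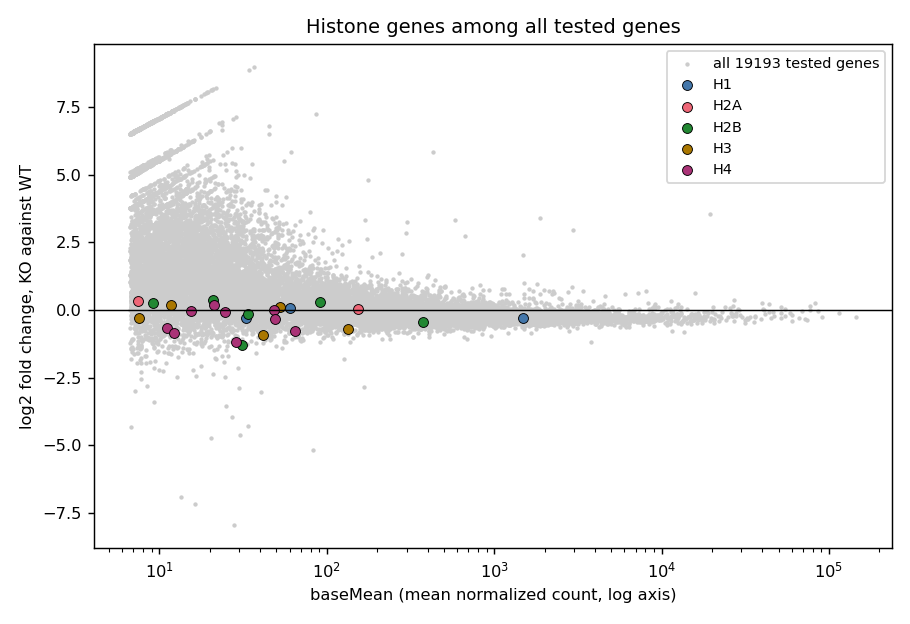
log2 fold change of KO against WT against baseMean on a log axis for the 19193 tested genes (grey) and the 25 tested histone genes, coloured by class. Under a baseMean of 50 the grey points lie mostly above 0 (85.2% positive) and the histone genes mostly at or below it (6 of 17 positive).

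Genes that make, process or degrade histone mRNA, taken as 1 list, had a median level of 88.5 per kb, against 4.74 for the histone genes. Of 24 such genes, 24 were tested, 0 were called higher and 0 lower, and 3 were lower at an unadjusted p under 0.05, with 21 negative and a median of -0.23. Over all tested genes 3.95% were lower at that p, but the share was 2.60% at a baseMean from 50 to 1000 and 21.6% from 1000 up, and the median baseMean of this list is 550. Slbp, the stem-loop binding protein, stood at -0.22 ± 0.21 (adjusted p = 0.688), with 1373 as its baseMean, per the authors' deposited table. Casp8ap2, which encodes FLASH, a subunit of the cleavage machinery, had -0.71 ± 0.32 (adjusted p = 0.286) per the authors' deposited table. Cpsf1 and Srrt, of the cleavage and cap-binding machinery, stood at -0.48 ± 0.19 (0.200) and -0.50 ± 0.20 (0.218), and the exonuclease Xrn1 at -0.45 ± 0.24 (0.382), per the authors' deposited table. Npat, the coactivator of histone gene transcription, was at 0.05 ± 0.37 per the authors' deposited table.

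Histone chaperones, which carry histones to and from DNA, gave 0 calls in either direction among 22 genes, with 3 lower at an unadjusted p under 0.05 and a median of -0.22. The smallest p was that of Rbbp4, a subunit of the chromatin assembly factor CAF-1 and of other complexes, at -0.59 ± 0.18 (adjusted p = 0.0878) per the authors' deposited table. Ssrp1, a subunit of the FACT chaperone, stood at -0.46 ± 0.19 (0.242), Tonsl at -0.39 ± 0.18 (0.306) and Cabin1 at -0.34 ± 0.21 (0.482) per the authors' deposited table. The median baseMean of this list is 646. Among all tested genes whose baseMean is 1000 or more the median was -0.25, with 7.10% positive and 21.6% lower at an unadjusted p under 0.05, against 3.95% lower over all tested genes.

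The variant histone genes, most of which give mRNAs with poly(A) tails in and out of S phase, had a median level of 304 per kb. H3f3b, a gene of the H3.3 variant, stood at 18460 per kb and H2afz, of the H2A.Z variant, at 1689, against 159 for Hist1h3e and 71.5 for Hist3h2a, while H3f3c was at 24.2. In H1 the order was the other way, with H1f0 at 304 per kb and Hist1h1c at 951. Of 11 variants tested, 0 were called in either direction, 0 had an unadjusted p under 0.05 and the median was -0.14. H3f3a stood at -0.28 ± 0.22 (adjusted p = 0.613), H2afz at -0.21 ± 0.18 (0.653), H2afy at -0.19 ± 0.17 (0.671) and Cenpa at -0.36 ± 0.33 (0.682) per the authors' deposited table. Both H2afz and H2afy turned positive when centred on abundant genes, to 0.046 and 0.060.

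Genes of S phase and the cell cycle gave 0 calls among 32 tested, with 0 higher and 2 lower at an unadjusted p under 0.05 and a median of -0.07. Over all tested genes 9.62% were higher and 3.95% lower at that p, and 2.47% and 2.60% at a baseMean from 50 to 1000. Of the 32, 15 were positive and 17 negative, so the list had no common direction. The replication helicase genes Mcm7 and Mcm4 had the smallest p, at -0.75 ± 0.30 (adjusted p = 0.205) and -0.52 ± 0.26 (0.352), per the authors' deposited table. Mcm2 at -0.46 ± 0.27 (0.467) and Mcm5 at -0.42 ± 0.29 (0.538) followed, per the authors' deposited table. The highest value was that of Gins1, another replication gene, at 1.29 ± 0.94 (0.573) per the authors' deposited table. The errors of the proliferation markers Top2a and Mki67, chosen after their values were seen, were higher than is usual at their abundance, by ratios of 2.86 and 2.79, above the 1.24 of Hist1h1c, the highest ratio among histone genes.

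**Figure D5:**
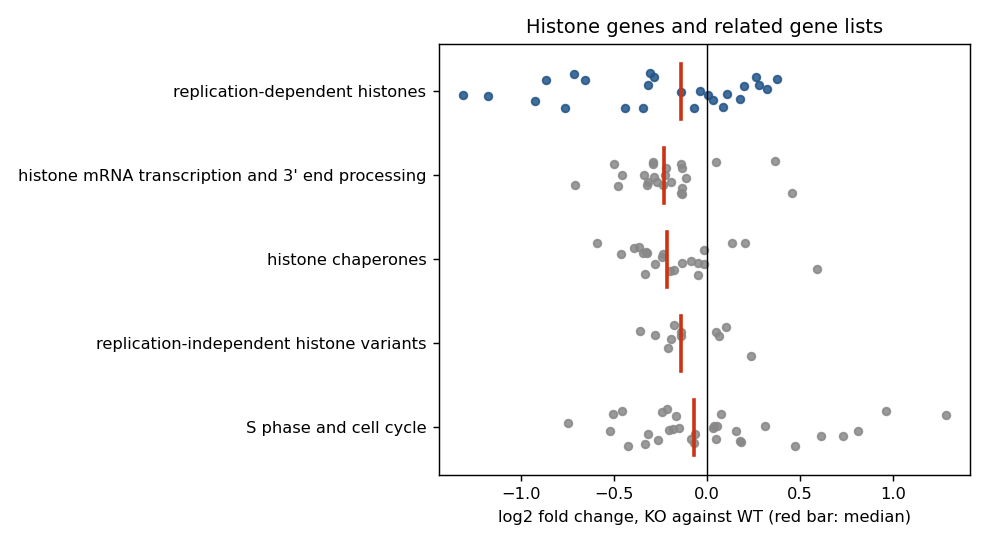
log2 fold change of KO against WT for the 25 tested replication-dependent histone genes (blue) and 4 related gene lists (grey), with 1 point per gene and a red bar at the median. The medians of the 5 rows lie between -0.23 and -0.07, and the histone genes spread from -1.31 to 0.38.

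The cells carried the markers of ILC2s, with Gata3 and Id2 at baseMean values of 39152 and 43668 by the authors' deposited table. All 14 ILC2 markers were negative with a median of -0.33 and 0 calls, while 92.9% of all tested genes whose baseMean is 1000 or more were negative, with a median of -0.25. Markers of other cells were present too. Summed baseMean was 211382 for the 14 ILC2 markers, against 10175 for 7 of macrophages, 10068 for 5 of epithelium, 6628 for 8 of T cells, 6308 for 5 of red cells, 5415 for 7 of B and plasma cells, 5230 for 5 of fibroblasts and 2076 for 4 of endothelium, per the authors' deposited table. All tested macrophage, epithelial, fibroblast and endothelial markers were positive, with medians of 0.34, 0.73, 0.78 and 0.42. Their errors, divided by the median error of genes of like abundance, had medians of 1.13, 5.15, 5.63 and 1.29 in the same order. Cd3g of the T cell list was the 1 marker called, as lower, so none of the positive markers was. The part of other cells in the histone values was not tested. In bulk samples, the share of cycling cells and the histone mRNA per cell cannot be told apart. No histone gene was called in either direction here.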

How the data were processed

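The data are RNA measurements from 2 WT and 2 KO pools of lung ILC2s, each of 3 to 4 mice. Per the labels' protocols, Trizol was used for the RNA, a SMART-Seq HT kit for full-length cDNA and a TruePrep kit for the libraries. The submitters' processing notes name HISAT2, Cufflinks and mm10 but no roles. Which counter and annotation were used is not given in the sources used here.

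The authors deposited, per the file headers, a mean normalized count per gene (baseMean, a signal over the libraries), the log2 fold change and its error, also in log2 units, the statistic (a score) and the p-value before and after adjustment. Another 8 columns of values per library match no sample label and were not used, so depth per library was not analysed here and the planned fits on values per library were not run. Since WT comes first in the table's name, signs were reversed to give KO against WT. As signed here, Nrp1, the gene floxed in the KO group, was lower in KO, at -1.18. Were WT not the numerator, each direction here, that of Nrp1 too, would be the other way. The authors' two-sided test with Benjamini-Hochberg adjustment over 19193 genes was the test throughout, and recomputing that adjustment differed by at most 3.96e-05. Intervals of 95% are the fold change with the deposited error under a normal distribution.

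Exonic lengths, positions and transcripts came from GENCODE M21 (38388 identifiers matched by gene model, 58 of 60 members). Work used Python 3.11.15, pandas 2.3.3 and scipy 1.17.1, and the adjustment and motif search were tested on simulated data. The members and lists were chosen with earlier results of these data known. Named genes were the 5 highest per class by level per kb, the 10 smallest p among members, the 3 nearest the low-count limit on each side, Nrp1 and up to 4 genes per list by smallest p. Others named were chosen after their values were seen.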

Additional observations from a re-analysis of the deposited data

How the results depend on the processing

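Of the histone genes, 0 were called higher and 0 lower under each of the 5 alternatives run. Genes called higher and lower over the whole table numbered 87 and 19 as deposited, 21 and 2 with no filter on low counts, 22 and 13 among genes whose baseMean is 50 or more, 39 and 17 when limited to protein-coding genes, 266 and 40 with the threshold on the adjusted p raised to 0.1, and 225 and 2 when centred on abundant genes. The first 3 differ in how many genes enter the adjustment, and the last adds 0.25 to each fold change. The median over tested members turned from -0.14 to 0.12 when centred and was -0.014 over all 60 members, and that of H1 moved from -0.28 to -0.030, or to -0.11 for its 2 genes at a baseMean of 50 or more. With all members that have a fold change the H1 median was 0.11, and with a baseMean of at least 50 that of H2B was -0.080; both rest on other members, 6 for H1 and 2 for H2B. The H4 median, -0.34, was -0.067 over all 13 members, -0.091 when centred and -0.76 for the 1 gene with a baseMean of at least 50. That of H3, -0.30, was -0.51 over all 10 members and -0.051 when centred, and that of H2A, 0.18, was 0.60 over all 14 members, 0.43 when centred and 0.03 for the 1 gene with a baseMean of at least 50. That of H2B, 0.06, was 0.26 over all 17 members and 0.32 when centred. Of 173 comparisons for 37 named genes, 167 kept direction and call. Only centring alters a fold change, so under the other alternatives the direction was fixed in advance and only the call could change. On centring, 32 of the 37 genes kept direction and call and 5 turned: H2afy (0.060), H2afz (0.046), Hist1h2bg (0.12), Hist1h4h (0.21) and Hist1h4m (0.18). Rbbp4 gained a call at the looser threshold. No paired analysis was possible because no column of values per library could be matched to a sample; leaving out a replicate and another count model were not run for the same reason. The low level of most members, with a baseMean under 6.71 in 35 of 60, limits what could be tested, and its cause was not tested.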

Other observations

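Hist1h2aa and Hist1h2ba, the testis forms of H2A and H2B, lie beside each other on opposite strands and have the same deposited baseMean, 0.371, and the same log2 fold change, 2.27 ± 4.97, in the authors' deposited table. Hist1h1t, the testis form of H1, stood at 2.67 (baseMean, the authors' deposited table). Hist1h4b, an H4 gene, had the lowest baseMean of the 60, 0.161, in the authors' deposited table.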
